A study of Mus musculus with 4 samples.

Results

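The genes described here are 10 immediate-early genes: the FOS family (Fos, Fosb, Fosl1 and Fosl2), the JUN family (Jun, Junb and Jund), and Egr1, Ier2 and Atf3. They were chosen by symbol from the deposited expression table, joined by gene identifier to the count table, and all 10 were found among the 55335 counted genes. Each passed the filter on low counts, which left 17262 genes. RNA was sequenced from 2 libraries of Tex11PM/Y and 2 of wild-type (WT) mouse spermatogonial stem cells (SSCs), the germ cells that renew themselves and sustain sperm production. Tex11 lies on the X chromosome and is required for meiotic crossovers, and the labels do not define PM. Both genotypes came from testes at postnatal day 10 on the C57/BL6*DBA2 background, were grown and passaged in culture, and were collected on a cell sorter before poly(A) RNA was made into libraries. The labels give neither the sort gate nor the time from culture to lysis, nor is it stated that the 2 libraries of each genotype are from different cultures or mice. Accordingly, p-values reflect just the spread among these 4 samples, which may be technical.

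AP-1 is a transcription factor made of a pair of basic leucine zipper proteins, typically a FOS and a JUN protein. FOS proteins need a JUN partner to bind DNA, whereas JUN proteins can also pair with each other. Genes such as Fos, Jun and Egr1 are called immediate-early because growth factors, serum and stress switch them on within minutes without new protein synthesis, and many of their mRNAs are short-lived. In cultured SSCs, GDNF, the growth factor they depend on, is known to induce Fos through RAS signalling.

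The control region just upstream of an immediate-early gene is where cyclic AMP and growth factor signals are read, so the sequences of the 4 members with the largest spread between libraries whose RefSeq start lies close to the start in the count table are given. Each line holds the 250 bases before the RefSeq start in GRCm38.p6, 5′ to 3′ on the gene's own strand. Capitals mark the half-site TGACG of the cyclic AMP response element, the related octamer TGACNTCA, TATAAA and CCAAT.
Fos, chr12:85473640-85473889, plus strand: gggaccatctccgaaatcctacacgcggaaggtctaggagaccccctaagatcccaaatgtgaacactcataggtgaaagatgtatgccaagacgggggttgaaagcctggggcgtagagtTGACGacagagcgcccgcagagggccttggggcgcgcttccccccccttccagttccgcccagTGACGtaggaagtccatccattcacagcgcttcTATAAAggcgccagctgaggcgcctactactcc
Fosb, chr7:19310046-19310295, minus strand: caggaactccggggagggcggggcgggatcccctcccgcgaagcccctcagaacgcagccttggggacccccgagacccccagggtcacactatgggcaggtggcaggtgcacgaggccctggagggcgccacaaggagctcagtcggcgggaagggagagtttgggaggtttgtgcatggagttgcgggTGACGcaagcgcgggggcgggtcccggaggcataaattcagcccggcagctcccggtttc
Jun, chr4:95052223-95052472, minus strand: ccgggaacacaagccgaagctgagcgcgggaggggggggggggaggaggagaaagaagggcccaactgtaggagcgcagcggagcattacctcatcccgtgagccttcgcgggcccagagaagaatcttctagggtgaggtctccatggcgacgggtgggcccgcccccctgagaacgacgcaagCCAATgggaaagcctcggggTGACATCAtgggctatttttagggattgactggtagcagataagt
Junb, chr8:84978749-84978998, minus strand: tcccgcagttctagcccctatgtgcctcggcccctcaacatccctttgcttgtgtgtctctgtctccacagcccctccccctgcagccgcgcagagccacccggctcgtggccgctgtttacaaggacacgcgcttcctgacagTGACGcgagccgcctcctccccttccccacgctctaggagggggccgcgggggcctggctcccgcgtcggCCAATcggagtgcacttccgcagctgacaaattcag
In the Fos window, TGACG lay at bases -129 to -125 and -66 to -62 from the start, and TATAAA at -33 to -28. Fosb held TGACG at -60 to -56, and Junb at -106 to -102. Jun held the octamer at -45 to -38. RefSeq windows were matched for 7 members (Fos, Fosb, Fosl2, Jun, Junb, Jund and Atf3). Of these, Fos, Fosb, Junb and Atf3 held TGACG on either strand, as did 17.8% of the 32851 mouse promoter windows of the same length. Only the Jun window held TGACNTCA among them, which 7.49% of all windows held. TGACG and TGACNTCA were added to the search after these sequences were seen, so their shares are a description only. Jund, which had the smallest spread between libraries, held none of the motifs searched. The RefSeq starts of Fosl2, Jund and Atf3 lie 671, 1210 and 34706 bases from the gene starts of the count table, so their windows may belong to other transcript starts than those counted. None of the 7 windows held the full element TGACGTCA (1.55% of all windows), the AP-1 site TGACTCA (4.46%), the serum response CArG box (1.47%) or the ETS site CCGGAAG (6.91%) on either strand. A GC box, GGGCGG, lay in 5 of them and in 32.7% of all windows, and overlapped the EGR site GCGNGGGCG in Fosb and Fosl2 (4.7% of all windows). CCAAT lay in Jun and Junb (33.8%), and TATAAA in Fos alone of the 7 (12.4%). These matches describe letters in a window and not binding. Bases further upstream than 250 were not searched, so a motif absent from a window may lie beyond it.

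Short-lived mRNAs often carry AU-rich elements, pentamers ATTTA and longer runs that mark a transcript for decay, in the 3′ untranslated region. The nonamer TTATTTATT, shown in capitals, was found in the 3′ untranslated region of 2 of the 10 members, in GRCm38 on the plus strand.
Fos, chr12:85477105-85477129: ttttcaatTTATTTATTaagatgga
Fosl2, chr5:32156873-32156897: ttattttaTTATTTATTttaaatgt
The nonamer was found in 8.08% of 14402 tested genes with an annotated 3′ untranslated region and in 27.0% of the 37 other immediate-early genes. The heptamer TATTTAT was found in 7 of the 10 members, in 59.5% of the other immediate-early genes and in 29.8% of all tested genes. Fos held 4 ATTTA pentamers, or 4.89 per kb, a density that 6.42% of tested genes reached. Junb held 2 (4.10 per kb) and Jun 4 (3.24 per kb), whereas Ier2 held 0. Jun, Junb, Jund and Ier2 are single-exon genes, as were 2.58% of the tested coding genes.

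The libraries had total counts of 19306140 and 19804951 (Tex11PM/Y libraries A and B) and 19047148 and 19396809 (WT replicates 1 and 2). Both Tex11PM/Y columns carry 1 name in the deposited tables, so the letters follow the column order. Levels are given as CPM, counts scaled to library size with TMM factors, and 3 counts correspond to between 0.149 and 0.169 CPM. Tex11 itself was at 22.7 and 9.32 CPM in Tex11PM/Y libraries A and B, against 66.4 and 126 CPM in WT replicates 1 and 2. Its log2 fold change was -2.59 ± 0.54 (SE; edgeR adjusted p = 0.884). Germ cell markers such as Ddx4 and Dazl were present in every library, and the 13 markers summed to 3928 and 2960 CPM in Tex11PM/Y cells, against 2688 and 2970 CPM in WT cells. Library A and WT replicate 1 each stood apart from the other 2 libraries. Over 2-fold differences covered 24.7% of tested genes between libraries A and B, 23.4% between library A and WT replicate 2, 22.3% between library B and WT replicate 1, and 22.1% between the WT replicates. They covered 39.2% between library A and WT replicate 1 but 5.68% between library B and WT replicate 2. The 17 fibroblast markers, all of them present in every library, summed to 649.7 CPM in library A and 6535 CPM in library B, against 18620.0 CPM in WT replicate 1 and 5276 CPM in WT replicate 2, and all 17 were lowest in library A and highest in WT replicate 1.

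The question asked of the 10 genes was whether their RNA differed between Tex11PM/Y and WT cells. For 9 of 10 the fitted log2 fold change was below 0, with a median of -1.67 against 0.01 over all tested genes, and 49.0% of tested genes were below 0. The other member, Jund, was above 0 by 0.0009, as were 51.0% of tested genes. None passed the threshold of an adjusted p under 0.05, and neither did any other gene (0.0% in each direction). At an unadjusted p under 0.05 the edgeR test took Jun and Ier2, 2 of 10 members, lower in Tex11PM/Y cells, as it did 1.71% of all tested genes, and 0 members higher, against 0.991%. DESeq2 called 0 members, 0.00303% of 33024 genes higher and 0.0% lower, and at an unadjusted p under 0.05 it took 5 members lower, beside 2.02% of genes. With edgeR that count of members lower was 2 without library A (0.511% of genes), 10 without library B (9.46%), 0 without WT replicate 1 (0.245%) and 3 without WT replicate 2 (4.08%). Both Tex11PM/Y libraries lay below both WT libraries in 6 of the 10 (Fos, Fosb, Fosl2, Jun, Junb and Ier2), as they did in 16.3% of all tested genes, and above both in 0, against 16.1%. Without library B, 7 members passed the adjusted threshold, all lower, beside 2.37% of genes lower and 0.394% higher. Then 10 members lay below both WT libraries, as 38.4% of genes did, and 0 above, as 39.3% did. Without library A, 0 passed, 6 lay below both WT libraries, as 29.0% of genes did, and 2, Fosl1 and Jund, lay above both, as 28.1% did. In bulk RNA, fewer cells of a type and less RNA per cell cannot be told apart.

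**Figure D1:**
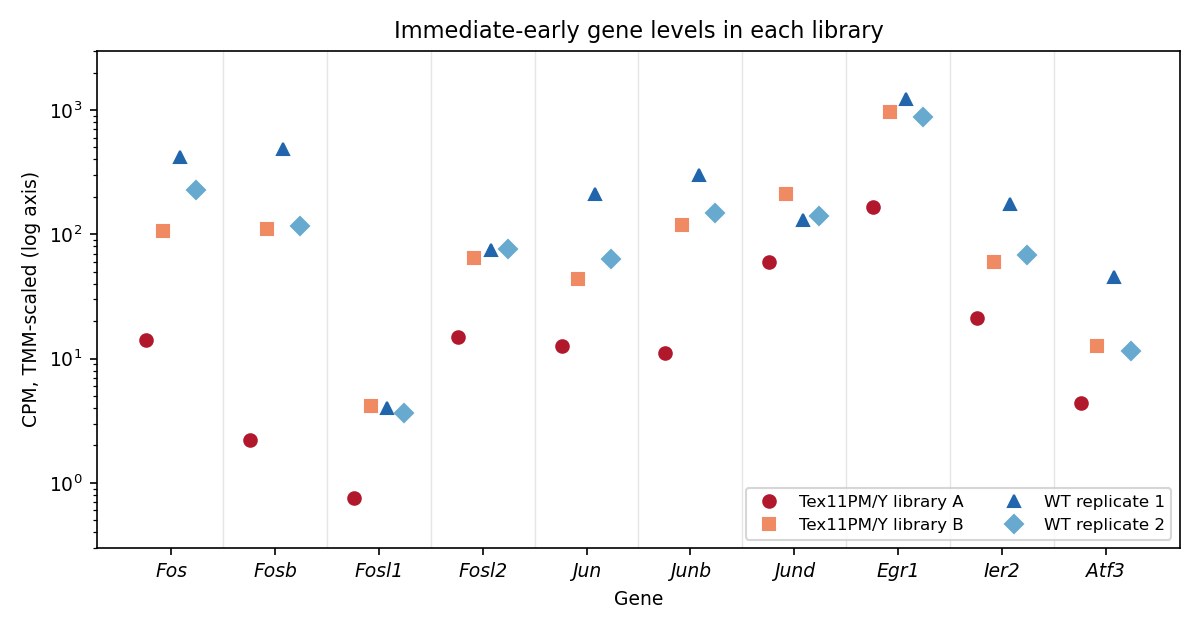
Level of each of the 10 genes in each library, as TMM-scaled CPM on a log axis. Circles and squares are Tex11PM/Y libraries A and B, triangles and diamonds WT replicates 1 and 2; library A is lowest for all 10 genes, and Fosb runs between 2.22 and 489.8 CPM.

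Among the FOS genes, Fos and Fosb had the widest spread. Fos (ENSMUSG00000021250.13, chr12:85473890-85477273, plus strand), the founding member and partner of JUN, was at 14.2 and 107 CPM in Tex11PM/Y libraries A and B, against 423 and 227 CPM in WT replicates 1 and 2. Both WT libraries lay above both Tex11PM/Y libraries, and library A was far below the other three. The means were 60.4 ± 65.4 CPM in Tex11PM/Y and 325 ± 139 CPM in WT cells (SD, n = 2 each), with a log2 fold change of -2.43 ± 0.97 (SE; edgeR adjusted p = 0.884). Fosb (ENSMUSG00000003545.3, chr7:19302696-19310051, minus strand), a close relative of Fos and likewise induced by stimuli, was at 2.22 and 109.8 CPM in Tex11PM/Y libraries A and B, against 489.8 and 117 CPM in WT replicates 1 and 2. The groups did not overlap, but library B was within 1.07-fold of WT replicate 2, while library A was 49.5-fold below library B. In FPKM the groups overlapped, with library B at 33.4 FPKM against WT replicate 2 at 32.4 FPKM. The log2 fold change was -2.44 ± 1.69 (SE; edgeR adjusted p = 0.884), and the means were 56.0 ± 76.1 CPM in Tex11PM/Y and 304 ± 263 CPM in WT cells (SD, n = 2 each). In only 0.0521% of tested genes was the range of log2 CPM over the 4 libraries as wide as that of Fosb, 7.72, and in 1.23% as wide as that of Fos, 4.89.

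The FOS-related antigens had narrower ranges. Fosl2 (FRA-2; ENSMUSG00000029135.10, chr5:32135801-32157842, plus strand) lacks the strong transactivation domain of Fos. It was at 15.0 and 64.8 CPM in Tex11PM/Y libraries A and B, against 75.3 and 76.2 CPM in WT replicates 1 and 2. The WT libraries were nearly equal and lay just above library B, and library A stood alone at the bottom. The means were 39.9 ± 35.2 CPM in Tex11PM/Y and 75.8 ± 0.58 CPM in WT cells (SD, n = 2 each), and the log2 fold change was -0.93 ± 0.63 (SE; edgeR adjusted p = 0.884). Fosl1 (FRA-1; ENSMUSG00000024912.6, chr19:5447547-5455946, plus strand), known as a target of AP-1 itself, was at 0.755 and 4.14 CPM in Tex11PM/Y libraries A and B, against 3.99 and 3.64 CPM in WT replicates 1 and 2. Library B was the highest of the 4 and library A the lowest, so the groups overlapped. The means were 2.45 ± 2.39 CPM in Tex11PM/Y and 3.82 ± 0.246 CPM in WT cells (SD, n = 2 each), with a log2 fold change of -0.64 ± 0.86 (SE; edgeR adjusted p = 0.910). Fosl1 had between 15 and 83 counts per library and overlaps Ccdc85b on the opposite strand, which had between 314 and 593. Because the library kit is not stated to keep strand, reads of the overlap cannot be told apart.

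Of the JUN genes, Jun and Junb had both Tex11PM/Y libraries below the WT libraries and Jund did not. Jun (ENSMUSG00000052684.4, chr4:95049034-95052222, minus strand), the main partner of FOS, was at 12.5 and 44.1 CPM in Tex11PM/Y libraries A and B, against 211 and 63.1 CPM in WT replicates 1 and 2. The groups were apart, with WT replicate 1 well above the rest and WT replicate 2 within 1.43-fold of library B. Its log2 fold change was -2.28 ± 0.80 (SE; edgeR adjusted p = 0.884), and the means were 28.3 ± 22.3 CPM in Tex11PM/Y and 137 ± 105 CPM in WT cells (SD, n = 2 each). Junb (ENSMUSG00000052837.6, chr8:84976910-84978718, minus strand), a weaker activator that can restrain Jun, was at 11.03 and 119.5 CPM in Tex11PM/Y libraries A and B, against 298 and 149 CPM in WT replicates 1 and 2. Library A was 10.8-fold below library B, which in turn lay just under WT replicate 2. The means were 65.3 ± 76.7 CPM in Tex11PM/Y and 224 ± 106 CPM in WT cells (SD, n = 2 each), with a log2 fold change of -1.78 ± 1.11 (SE; edgeR adjusted p = 0.884).

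Jund (ENSMUSG00000071076.6, chr8:70698949-70700616, plus strand), known as the JUN gene expressed in resting cells and least dependent on stimuli, was at 59.5 and 212 CPM in Tex11PM/Y libraries A and B, against 129.7 and 142 CPM in WT replicates 1 and 2. The Tex11PM/Y libraries lay on either side of the WT libraries. The means were 136 ± 108 CPM in Tex11PM/Y and 136 ± 8.47 CPM in WT cells (SD, n = 2 each), and the log2 fold change was 0.0009 ± 0.55 (SE; edgeR adjusted p = 0.9996), a value whose sign turned under other scalings, such as -0.0022 with DESeq2 size factors. Its range of log2 CPM over the 4 libraries, 1.83, was the narrowest of the 10, and 21.3% of tested genes had a range as wide.

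Of the remaining 3 genes, only Ier2 had groups that were apart. Egr1 (ENSMUSG00000038418.7, chr18:34859823-34864984, plus strand), a zinc finger transcription factor induced by ERK signalling, was at 166 and 973 CPM in Tex11PM/Y libraries A and B, against 1221 and 878 CPM in WT replicates 1 and 2. Library B lay between the WT libraries, and library A was 5.86-fold below library B. The means were 569 ± 570.4 CPM in Tex11PM/Y and 1049 ± 243 CPM in WT cells (SD, n = 2 each), with a log2 fold change of -0.88 ± 0.77 (SE; edgeR adjusted p = 0.884). Ier2 (ENSMUSG00000053560.5, chr8:84661331-84662854, minus strand), which encodes a nuclear protein and is induced by growth factors, was at 21.1 and 59.5 CPM in Tex11PM/Y libraries A and B, against 177 and 68.4 CPM in WT replicates 1 and 2. Both WT libraries were above both Tex11PM/Y libraries, with library B and WT replicate 2 within 1.15-fold. The means were 40.3 ± 27.1 CPM in Tex11PM/Y and 123 ± 76.6 CPM in WT cells (SD, n = 2 each), and the log2 fold change was -1.61 ± 0.62 (SE; edgeR adjusted p = 0.884). Atf3 (ENSMUSG00000026628.13, chr1:191170296-191218039, minus strand), a stress-induced relative of the CREB proteins that pairs with JUN proteins, was at 4.38 and 12.6 CPM in Tex11PM/Y libraries A and B, against 45.2 and 11.4 CPM in WT replicates 1 and 2. WT replicate 1 stood above the rest and library B was slightly above WT replicate 2, so the groups overlapped. The means were 8.49 ± 5.82 CPM in Tex11PM/Y and 28.3 ± 23.9 CPM in WT cells (SD, n = 2 each). The log2 fold change was -1.74 ± 0.78 (SE; edgeR adjusted p = 0.884), and without WT replicate 1 it was -0.44.

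Read across the libraries, all 10 members were lowest in library A, where 34.4% of tested genes were lowest, and 7 of 10 were highest in WT replicate 1, where 34.2% of tested genes were highest. Fosl2 was highest in WT replicate 2, and Fosl1 and Jund in library B. Together the 10 genes summed to 306 and 1705 CPM in Tex11PM/Y libraries A and B, against 3074 and 1735 CPM in WT replicates 1 and 2. Library B and WT replicate 2 were thus close and the other libraries lay on either side of them. Of the 10, 9 were within 1.5-fold between library B and WT replicate 2, at ratios between 0.699 (Jun) and 1.497 (Jund), and the exception was Fos, at 0.470. The median absolute log2 difference of the members between library B and WT replicate 2 was 0.22, against 0.25 over all tested genes. By contrast all 10 differed by over 2-fold between libraries A and B, with folds from 2.82 (Ier2) to 49.5 (Fosb), and 5 of 10 did between WT replicates 1 and 2. In 9 of the 10, Atf3 being the exception, the fold between the Tex11PM/Y libraries exceeded that between the WT libraries. No member's difference between genotypes passed the test against this spread.

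The result turned on which library was left out. Without library B, edgeR called 2.37% of 18765 genes lower and 0.394% higher in the remaining Tex11PM/Y library, which is assumed to vary as the WT libraries do. The 7 members called lower were Fos, Fosb, Fosl2, Jun, Junb, Egr1 and Ier2, with log2 fold changes between -7.14 (Fosb) and -2.39 (Fosl2). The smallest edgeR adjusted p was 0.000188 for Fos and the largest of the 7 was 0.0234 for Ier2. Without library A, edgeR called 0 of 18191 genes, with 93 lower and 62 higher at an unadjusted p under 0.05. The log2 fold changes were then -1.60 for Fos, -1.64 for Jun, -1.47 for Fosb and -0.90 for Junb. Egr1 was then at -0.11, Fosl2 at -0.22, Fosl1 at 0.12 and Jund at 0.65. Without WT replicate 1, Fos was at -1.92, Fosb at -1.07, Jun at -1.17, Junb at -1.19, Ier2 at -0.78 and Atf3 at -0.44. Without WT replicate 2, Fos was at -2.81, Fosb at -3.13, Jun at -2.91, Junb at -2.20, Ier2 at -2.15 and Atf3 at -2.42. Fos, Fosb, Fosl2, Jun, Junb, Egr1, Ier2 and Atf3 had a negative fold change whichever of the 4 libraries was left out. Without the filter on low counts, edgeR called Jun and Ier2 lower, beside 0.103% of 33024 genes, and 0 members higher, beside 0.0484%.

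**Figure D2:**
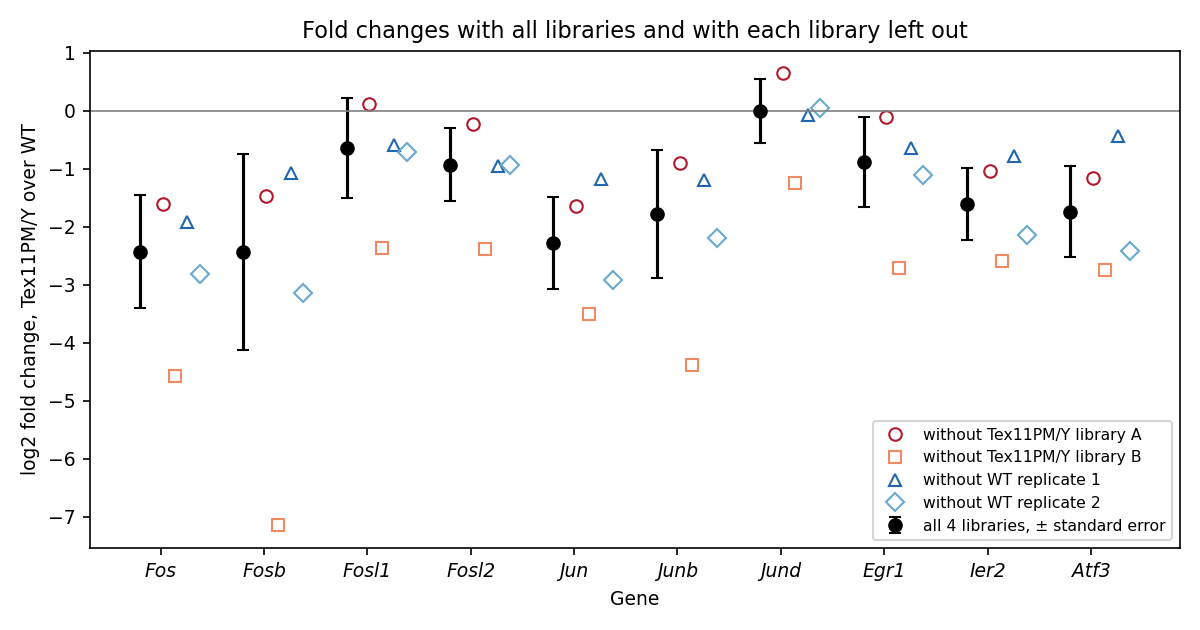
Log2 fold change of each gene, Tex11PM/Y over WT, from edgeR. Filled points with bars are values with all 4 libraries and their standard error; open symbols are values without 1 library, and the value of Fosb without library B reaches -7.14.

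Levels of different genes can be set side by side only per length, in FPKM. In every library Jund and Egr1 were the first and second of the 10 in either order, and Fosl1 was last. In Tex11PM/Y library A the order was Jund (85.5 FPKM), Egr1 (31.2), Ier2 (11.9), Fos (5.53), Junb (5.13), Jun (3.33), Fosl2 (1.95), Atf3 (1.82), Fosb (0.537) and Fosl1 (0.434). In library B Jund reached 344 FPKM and Egr1 187 FPKM, and Fosb, at 33.4 FPKM, stood beside Ier2 at 33.9 FPKM. In WT replicate 1 Egr1 (206 FPKM) came just before Jund (194 FPKM), followed by Fos at 152 FPKM, Junb at 125 FPKM and Fosb at 121 FPKM. In WT replicate 2 Jund stood at 219 FPKM, Egr1 at 163 FPKM and Fos at 89.2 FPKM. Averaged by genotype, Jund was at 215 ± 183 FPKM in Tex11PM/Y and 207 ± 17.7 FPKM in WT cells, and Egr1 at 109 ± 110.1 FPKM in Tex11PM/Y and 184.5 ± 30.6 FPKM in WT cells (SD, n = 2 each). Ordered by their means, all neighbours overlapped in range within Tex11PM/Y cells. Within WT cells Egr1 lay above Fos (121 ± 44.6 FPKM) and Fosl2 (9.16 ± 0.694 FPKM) above Fosl1 (3.30 ± 0.398 FPKM) without overlap (SD, n = 2 each), and all other neighbours overlapped.

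The make-up of the FOS and JUN families differed between libraries more in some members than in others. The 4 FOS genes summed to 8.45 and 89.0 FPKM in Tex11PM/Y libraries A and B, against 285 and 135 FPKM in WT replicates 1 and 2. Fos made up 65.5% and 48.9% of that sum in Tex11PM/Y libraries A and B, against 53.4% and 66.1% in WT replicates 1 and 2, so it was the leading FOS transcript in each. Fosb made up 6.35% and 37.5% in libraries A and B of Tex11PM/Y cells, against 42.6% and 24.0% in WT replicates 1 and 2. In library A, Fosl2, at 23.0%, held the place that Fosb held in the other 3. The 3 JUN genes summed to 94.0 and 414 FPKM in Tex11PM/Y libraries A and B, against 369.5 and 305 FPKM in WT replicates 1 and 2. Jund made up 91.0% and 83.2% in libraries A and B of Tex11PM/Y cells, against 52.6% and 71.8% in WT replicates 1 and 2. Junb made up 5.46% and 13.9% in Tex11PM/Y against 33.8% and 22.8% in WT libraries, and Jun 3.55% and 2.91% in Tex11PM/Y against 13.6% and 5.41% in WT libraries. The shares of all 3 genes, which add up to the whole, did not overlap between genotypes. With 2 libraries a genotype no permutation test can give a two-sided p under 0.333.

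**Figure D3:**
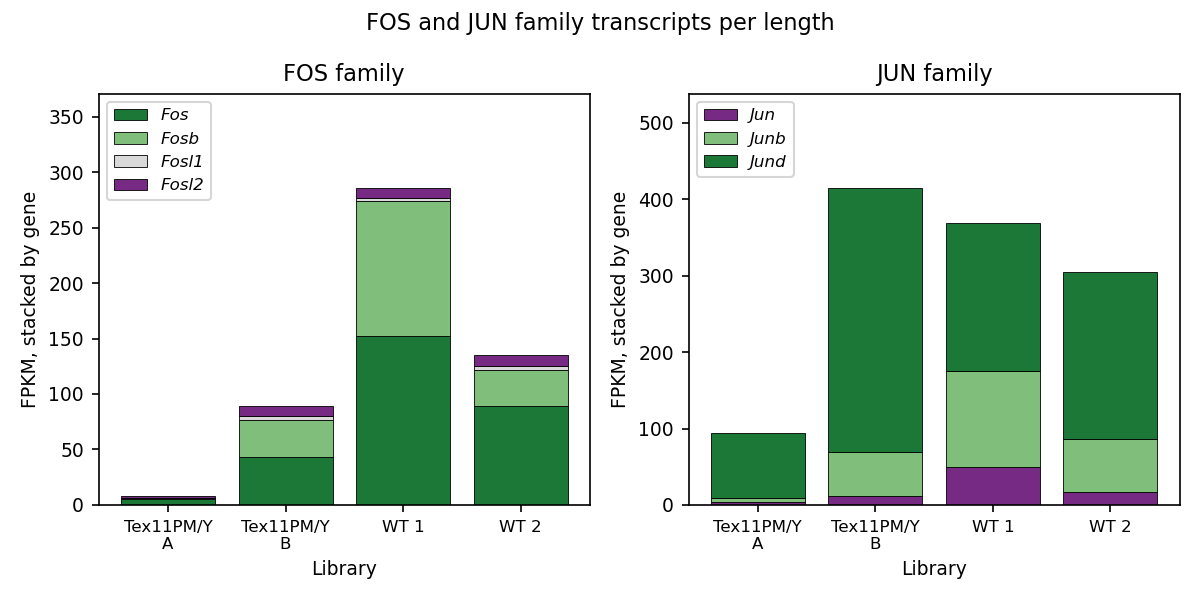
FPKM of the FOS genes (left) and the JUN genes (right) in each library, stacked by gene, on separate linear scales. The FOS bar of Tex11PM/Y library A is at 8.45 FPKM beside 89.0 FPKM in library B, and Jund fills most of every JUN bar.

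Profiles like that of Fos were sought among 10396 tested genes of at least 10 CPM in 1 library or more, by the root mean square difference of log2 CPM centred on each gene's mean over the 4 libraries. The 6 closest genes with a symbol were Cavin2 (0.16), Tgfb1i1 (0.19), Rbms3 (0.25), Cebpd (0.25), Vgll3 (0.26) and Clca3a1 (0.26). Cavin2, a coat protein of caveolae, was at 0.403 and 3.84 CPM in Tex11PM/Y libraries A and B, against 17.7 and 6.83 CPM in WT replicates 1 and 2. In library A, where 3 counts correspond to 0.151 CPM, Tgfb1i1 and Rbms3 were as low, at 0.3525 and 0.403 CPM. The prior count of 2 in log2 CPM raises such low values, so the ranks of these genes depend on it. Of the members, Junb was the closest to Fos, at rank 10 with a difference of 0.30, followed by Jun at rank 135 and Egr1 at rank 306. Ier2 was at rank 318, Atf3 at 383, Fosl2 at 406, Fosb at 610 and Jund at 1503, whereas Fosl1 stayed under 10 CPM. With 4 libraries, likeness of this kind is a description only.

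In the wider set of immediate-early genes most fold changes also lay below 0, and none passed the threshold. Of 37 other immediate-early genes, all of them tested, 0 passed the threshold, 34 had a fitted log2 fold change below 0 and 20 had both Tex11PM/Y libraries below both WT libraries, against 49.0% and 16.3% of all tested genes. Their median log2 fold change was -0.89, and 33 of 37 were lowest in library A. The 3 genes above 0 were Egr4 at 0.19, Klf10 at 0.04 and Per1 at 0.08. At an unadjusted p under 0.05, 8 were lower, beside 1.71% of all tested genes, and 0 higher, beside 0.991%. Btg2, an antiproliferative gene, was at 35.1 and 114 CPM in Tex11PM/Y libraries A and B, against 256 and 219.6 CPM in WT replicates 1 and 2, and both WT libraries were above both Tex11PM/Y libraries. Its log2 fold change was -1.67 ± 0.54 (SE; edgeR adjusted p = 0.884). Rhob, a small GTPase, was at 29.2 and 66.7 CPM in Tex11PM/Y libraries A and B, against 171 and 88.7 CPM in WT replicates 1 and 2. Nfkbia, the inhibitor of NF-kB, was at 22.6 and 64.3 CPM in Tex11PM/Y libraries A and B, against 140.3 and 97.4 CPM in WT replicates 1 and 2. For both genes the libraries of the genotypes were apart, at log2 fold changes of -1.44 ± 0.50 and -1.45 ± 0.51 (SE; edgeR adjusted p = 0.884 for both). These values include the chromosome-wide shifts between libraries described below. Whether Rhob and Nfkbia stayed apart with those shifts removed was not tested. Without library B, 22 genes of the 7 lists described here and below passed the threshold, all lower, beside 2.37% of all genes lower and 0.394% higher, Btg2, Rhob and Nfkbia among them.

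The genes that relay the inducing signal lay on both sides of 0. Of 23 kinases and factors that induce immediate-early genes, such as the ERK and JNK kinases and the serum response factor partners, 0 passed the threshold, 10 were below 0 and 13 above, with a median log2 fold change of 0.10. Elk3, an ETS partner of serum response factor, was at 4.08 and 9.97 CPM in Tex11PM/Y libraries A and B, against 26.5 and 13.0 CPM in WT replicates 1 and 2 (log2 fold change -1.49 ± 0.63, SE; edgeR adjusted p = 0.884). Mrtfb, a coactivator of the same factor, was at 189 and 162 CPM in Tex11PM/Y libraries A and B, against 94.9 and 141 CPM in WT replicates 1 and 2. Mapk8, which encodes the kinase JNK1 that phosphorylates JUN, was at 106 and 78.8 CPM in Tex11PM/Y libraries A and B, against 53.8 and 80.4 CPM in WT replicates 1 and 2. Elk3 was lower and Mrtfb higher in both Tex11PM/Y libraries, whereas the values of Mapk8 overlapped. Of the 23, 3 had groups apart with Tex11PM/Y lower and 4 with Tex11PM/Y higher, near the shares of all tested genes, 16.3% and 16.1%. All 6 corepressors and turnover factors of AP-1 and EGR proteins were above 0, at a median of 0.18, and 0 had groups apart. Among them Nab1, a corepressor of EGR proteins, was at 102.5 and 73.7 CPM in Tex11PM/Y libraries A and B, against 34.1 and 74.1 CPM in WT replicates 1 and 2 (log2 fold change 0.70 ± 0.43, SE; edgeR adjusted p = 0.884). Itch and Cop1, ubiquitin ligases that act on JUN, were at 0.27 ± 0.39 and 0.18 ± 0.41 on the log2 scale (SE; edgeR adjusted p = 0.918 and 0.951).

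Other genes of the leucine zipper class also lay on both sides of 0. Of 11 other AP-1 and small MAF genes, 10 were tested (Batf2 had at most 2 counts in a library) and 0 passed the threshold, with 6 below 0, 4 above and a median of -0.18. Jdp2, a JUN partner that represses AP-1, was at 1.11 and 5.98 CPM in Tex11PM/Y libraries A and B, against 14.8 and 11.1 CPM in WT replicates 1 and 2. Mafg, a small MAF protein, went the other way, at 249.2 and 240.2 CPM in Tex11PM/Y libraries A and B, against 166 and 176 CPM in WT replicates 1 and 2. Jdp2 and Mafg had groups that were apart, at log2 fold changes of -1.87 ± 0.81 and 0.52 ± 0.27 (SE; edgeR adjusted p = 0.884 for both). Of the 10 tested, 2 were apart with Tex11PM/Y lower and 2 with Tex11PM/Y higher, beside 16.3% and 16.1% of all tested genes. Of 11 CREB, ATF and C/EBP genes, 0 passed the threshold, 5 were below 0 and 6 above, with a median of 0.01. Cebpd, an acute-phase C/EBP factor, was at 1.21 and 14.1 CPM in Tex11PM/Y libraries A and B, against 46.3 and 18.9 CPM in WT replicates 1 and 2 (log2 fold change -2.09 ± 1.10, SE; edgeR adjusted p = 0.884). Creb1 and Cebpg, a CREB and a C/EBP family gene, were at 0.82 ± 0.54 and 0.66 ± 0.44 on the log2 scale (SE; edgeR adjusted p = 0.884 for both). Without library B, Jdp2, Maff, Cebpd and Cebpb were among those that passed the threshold, all lower.

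Known AP-1 targets were mostly lowest in library A. Of 15, 0 passed the threshold. Groups were apart in 6 with Tex11PM/Y lower and in 1 with Tex11PM/Y higher, beside 16.3% and 16.1% of all tested genes. Below 0 were 12, and 11 were lowest in library A, beside 49.0% and 34.4% of all tested genes. The median log2 fold change of the 15 targets was -0.52. Their median deviation from the gene's mean was -1.35 and 0.60 on the log2 CPM scale in Tex11PM/Y libraries A and B, against 0.22 and 0.71 in WT replicates 1 and 2. Library A was low and library B lay beside the WT libraries. Ccnd1, cyclin D1, was at 18.9 and 57.3 CPM in Tex11PM/Y libraries A and B, against 63.7 and 79.1 CPM in WT replicates 1 and 2. Timp1, an inhibitor of matrix metalloproteinases, was at 3.63 and 30.9 CPM in Tex11PM/Y libraries A and B, against 42.9 and 38.8 CPM in WT replicates 1 and 2. Hmox1, heme oxygenase 1, was nearly level between the Tex11PM/Y libraries, at 122.5 and 114 CPM in libraries A and B, against 217 and 151 CPM in WT replicates 1 and 2. The log2 fold changes of Ccnd1, Timp1 and Hmox1 were -0.91 ± 0.52, -1.24 ± 0.89 and -0.64 ± 0.31 (SE; edgeR adjusted p = 0.884 for each). Without library B, Ccnd1, Timp1, Cd44 and Il6 were among those that passed the threshold, all lower.

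Immediate-early genes are also known to be induced when cells are dissociated and sorted, so heat shock and handling genes were set beside them. Of 10, 0 passed the threshold, 7 were below 0 and the median log2 fold change was -0.35. WT replicate 1 was the highest library for 7 of the 10, beside 34.2% of tested genes. It was the lowest library for Hsp90aa1 and Hspd1, and Hsph1 was highest in library A. Hspa1b, an inducible HSP70 gene with a near-identical copy, Hspa1a, between which reads can be split, was at 42.0 and 56.1 CPM in Tex11PM/Y libraries A and B, against 130.0 and 79.4 CPM in WT replicates 1 and 2. Hspb1, a small heat shock gene, was at 4.58 and 12.5 CPM in Tex11PM/Y libraries A and B, against 97.2 and 12.3 CPM in WT replicates 1 and 2. Dnajb1, an HSP40 gene, was at 82.7 and 90.5 CPM in Tex11PM/Y libraries A and B, against 207 and 92.6 CPM in WT replicates 1 and 2. Of the 10, 2 were apart with Tex11PM/Y lower, Hspa1b and Dnajb1, and 1 with Tex11PM/Y higher, beside 16.3% and 16.1% of all tested genes. WT replicate 1 was the highest library for all 3 of Hspa1b, Hspb1 and Dnajb1. For Hspb1 and Dnajb1 it lay well above the rest. Their log2 fold changes were -1.09 ± 0.37, -2.68 ± 1.05 and -0.79 ± 0.41 (SE; edgeR adjusted p = 0.884 for each), and Hspb1 passed the threshold without the filter on low counts. The part of handling in the levels of the 10 members was not tested.

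Summed fibroblast and myoid markers were, as the members were, lowest in library A and highest in WT replicate 1, and the other marker lists were not. The mean log2 CPM of the 17 fibroblast markers was 3.59 and 7.30 in libraries A and B of Tex11PM/Y cells, against 8.54 and 7.15 in WT replicates 1 and 2. Like the summed level of the 10 members, it was lowest in library A, highest in WT replicate 1 and close between library B and WT replicate 2. As a share of counts the markers were 0.0668% and 0.662% in libraries A and B of Tex11PM/Y cells, against 1.74% and 0.538% in WT replicates 1 and 2. With that mean as a covariate edgeR called 0 genes, but genotype and covariate together on 4 libraries leave too little spread to test against. Of the 10 members, 7 stayed below 0, as did 53.0% of tested genes. Fos was then at -1.15, Jun at -0.96 and Fosb at -0.31, while Egr1 was at 0.17, Fosl1 at 0.28 and Jund at 0.71. The 13 macrophage markers, none at 0 in any library, summed to 29.5 and 1301 CPM in Tex11PM/Y libraries A and B, against 683 and 550.1 CPM in WT replicates 1 and 2, and all 13 were lowest in library A. Unlike the members, they were highest in library B. The 5 myoid markers summed to 7.20 and 31.8 CPM in Tex11PM/Y libraries A and B, against 194 and 33.9 CPM in WT replicates 1 and 2. Sertoli markers summed to between 9.10 and 20.8 CPM, with Fshr at 0 in every library, endothelial markers to between 14.6 and 17.2 CPM and Leydig markers to between 9.91 and 15.96 CPM, without the order of the members. The part of other cells in the levels of the 10 genes was not tested.

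**Figure D4:**
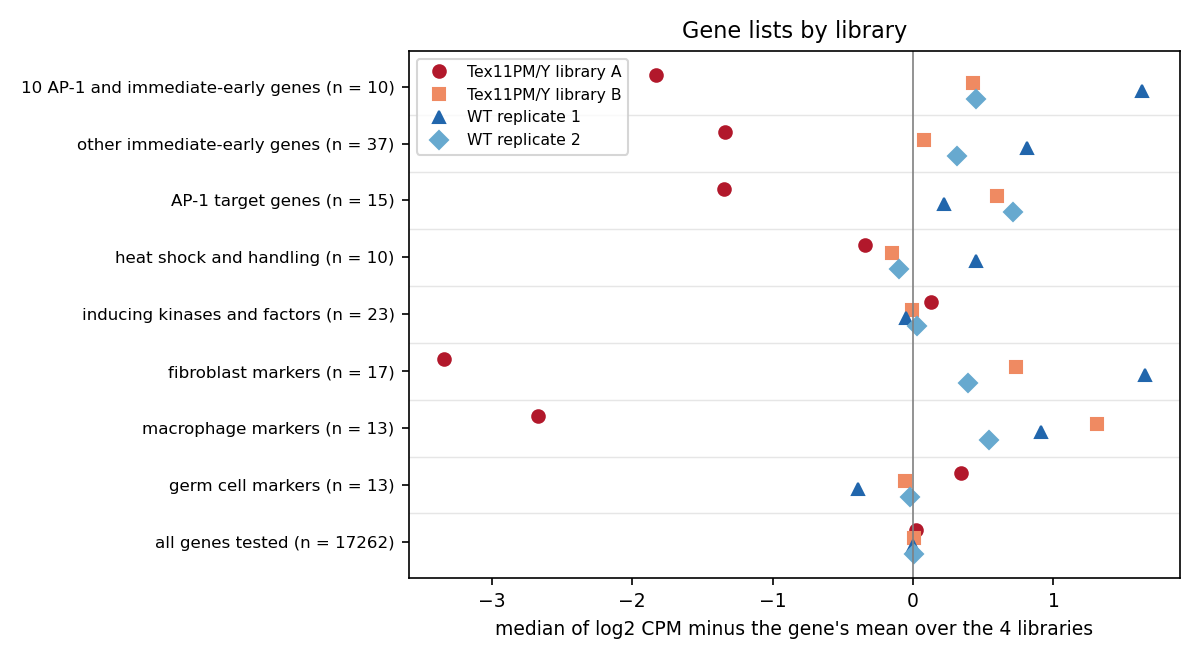
Median, over the tested genes of each list, of log2 CPM minus the gene's mean over the 4 libraries. Circles and squares are Tex11PM/Y libraries A and B, triangles and diamonds WT replicates 1 and 2; the 10 members stand at -1.83 and 0.43 in libraries A and B of Tex11PM/Y cells and at 1.63 and 0.45 in WT replicates 1 and 2, beside -3.34, 0.73, 1.65 and 0.39 for fibroblast markers in the same order.

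Chromosome-wide medians also differed between libraries, though the members' own ranges of log2 CPM over the 4 libraries were wider, at 1.83 to 7.72. Junb, Jund and Ier2 lie on chromosome 8, where the median log2 deviation over genes was -0.09 and -0.10 in libraries A and B of Tex11PM/Y cells, against 0.30 and -0.11 in WT replicates 1 and 2. Fos lies on chromosome 12, where it was -0.05 and -0.15 in libraries A and B of Tex11PM/Y cells, against -0.22 and 0.43 in WT replicates 1 and 2. Fos itself was at -0.04 in library B and 1.05 in WT replicate 2 on the same scale. The gap of chromosome 12 between those libraries was not small beside that of Fos. With the chromosome offset removed from each library, the log2 fold changes were -2.32 for Fos, -1.53 for Junb, -1.34 for Ier2 and 0.17 for Jund, and 0 members passed the threshold. The same 6 had groups that were apart, Tex11PM/Y lower, as 16.6% of tested genes had.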

How the data were processed

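Poly(A) RNA of 2 Tex11PM/Y and 2 WT SSC libraries was sequenced. The authors deposited 1 table of raw read counts (55335 genes) and, per the file headers, tables of FPKM and of TPM (37653 genes each). Tools named in the submitters' processing notes are STAR, fastp, StringTie, featureCounts and DESeq2, with mm10 as the build but without roles or versions. The sources used here do not give the annotation release. Any 2 libraries differed beyond sampling noise, at a chi-square per degree of freedom of 21.5 to 253.

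Counts were fitted with edgeR 4.0.16 under R 4.3.3, using filterByExpr, TMM factors and the robust quasi-likelihood F test on genotype alone, with Benjamini-Hochberg adjustment over 17262 genes and a threshold of 0.05. Log2 CPM used a prior count of 2, and the biological coefficient of variation was 43.4%. Alternatives were DESeq2 1.42.0 and its size factors, library size alone, no filter, at least 1 CPM in 2 libraries, limma 3.58.1 on log2 values of TPM with a pseudocount of 1 or FPKM with 1 or 0.1, for genes at 1 or more in 2 libraries, each library left out, chromosome offsets removed and the fibroblast mean as a covariate. A pseudocount shrinks fold changes of low genes, but not every member was smaller on these log2 scales than in edgeR. On log2(FPKM + 1) Fosl1 was at -0.75 and Fosb at -3.14, against -0.64 and -2.44 in edgeR. Atf3, by contrast, was at -1.28 against -1.74. The authors' TPM values were used only in the limma alternative.

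The members and all lists were chosen with earlier results of these data known. Named genes were the 10 members, for each list the members past the threshold or otherwise the 3 with the smallest edgeR p and a mean of at least 5 CPM in the higher group, and the 6 genes closest to Fos. One such gene is not reported here, but list counts include it. Other genes named without values were chosen after theirs were seen. Count-table coordinates are in mm10. Promoter windows are from RefSeq (GRCm38.p6), and 3′ untranslated regions and exon numbers from GENCODE M21. TGACG and TGACNTCA were added to the motifs after the sequences were seen.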

Additional observations from a re-analysis of the deposited data

How the results depend on the processing

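No member passed the threshold under 12 of the 14 alternatives run. Without the filter on low counts, 33024 genes were tested and 50 passed (16 higher and 34 lower in Tex11PM/Y cells), among them 2 members, Jun (log2 fold change -2.29, edgeR adjusted p = 0.000915) and Ier2 (-1.62, edgeR adjusted p = 0.0193), and 2 genes of the 7 lists, Btg2 and Hspb1. DESeq2 called 1 gene in all. Leaving out 1 library gave between 0 and 518 calls over all genes, between 0 and 7 over the members and between 0 and 22 over the lists, the higher value each time without library B, and between 6 and 10 members with groups apart. With 1 library left out, 27.7% to 38.4% of all genes were apart in the same direction, Tex11PM/Y lower. The count of members apart was 5 in FPKM, where Fosb overlapped, beside 12.4% of genes. It was 5 in TPM, where Fosl2 overlapped, beside 11.6% of genes. The cause was not tested.

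The sign of Jund reversed to -0.0022 with DESeq2 size factors, -0.0135 with DESeq2, -0.0146 without the filter, -0.26 on log2(FPKM + 1), -0.15 on log2(TPM + 1) and -0.27 on log2(FPKM + 0.1). Leaving out 1 library moved it between -1.24 and 0.65. Fosl1 moved between -2.37 and 0.12 when 1 library was left out, and stood at 0.28 with the fibroblast covariate, where Egr1 was at 0.17. The other 7 members kept a negative fold change under all 14 alternatives. The count of members below 0 ran from 7 to 10. No paired analysis was possible because both Tex11PM/Y columns carry the same replicate number. With 2 libraries a genotype, a p that misses the threshold does not show that levels were alike. In library A Fosl1 had 15 counts, Fosb 44 and Atf3 87, and the effect of depth was not tested.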
